A study of Rattus norvegicus with 6 samples.

Results

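Cysteine sulfur metabolism was followed in mesenchymal stem cells derived from rat adipose tissue, a stromal cell type (strain Sprague Dawley). The genes were chosen by symbol: 8 genes for the oxidation of cysteine to taurine (Cdo1, Csad, Ado), for transsulfuration (Cth, Cbs) and for the production and oxidation of sulfide (Mpst, Ethe1, Suox). Of the 8, 6 were found among the 21857 genes of the deposited counts and 5 had enough reads to be tested, among 12298 tested in all. Ado and Cth were not analysed here. The choice started from Cdo1 because its counts were already known to be lower with branched chain amino acids (BCAA), so its difference is a description of why it was chosen and not independent evidence.

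The first group of 3 libraries came from cells given 3.432 mM BCAA (leucine, isoleucine and valine), and the second group of 3 from cells given vehicle, both for 12 h and both in 100 µM hydrogen peroxide. All cells were kept in BCAA-free high-glucose medium with serum, so the medium of the vehicle cells held none of these amino acids beyond what serum brings. The labels do not say whether the replicates were separate cultures or animals, and no genetic change is named. The spread behind each p-value is thus that of these libraries and may be partly technical.

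Cysteine is the sulfur amino acid at a branch point. Transsulfuration makes it from homocysteine, with CBS forming cystathionine and CTH splitting it. Cysteine dioxygenase, encoded by Cdo1, commits cysteine to oxidation by turning its thiol into a sulfinic acid. CSAD decarboxylates that product to hypotaurine, the precursor of taurine, and ADO, a thiol dioxygenase, makes hypotaurine from cysteamine. In the mitochondrion MPST passes sulfur from the cysteine product mercaptopyruvate to a thiol acceptor, ETHE1 oxidises persulfides to sulfite, and SUOX, a molybdenum enzyme, turns sulfite into sulfate. Cdo1 is abundant in liver and adipose tissue, where its protein is stabilised when cysteine is plentiful.

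Promoter sequences from RefSeq, build GRCr8, were matched by symbol for 6 of the 8 genes, namely Csad, Ado, Cth, Cbs, Mpst and Suox; Cdo1 and Ethe1 had no entry. Each covers 250 bases before to 50 bases after the gene's start, 300 in all. The promoters differed widely in CpG content, from 54 CpG in Ado to 3 in Suox, with 41 in Csad, 21 in Cbs, 15 in Cth and 14 in Mpst, against a median of 7 over 33469 rat promoters. The 2 below are shown because, among the members with counts, they hold the most and the fewest CpG, marked by capitals. Csad lies at chr7:135215532-135215831 on the minus strand and Suox at chr7:1690186-1690485 on the minus strand.
Csad promoter: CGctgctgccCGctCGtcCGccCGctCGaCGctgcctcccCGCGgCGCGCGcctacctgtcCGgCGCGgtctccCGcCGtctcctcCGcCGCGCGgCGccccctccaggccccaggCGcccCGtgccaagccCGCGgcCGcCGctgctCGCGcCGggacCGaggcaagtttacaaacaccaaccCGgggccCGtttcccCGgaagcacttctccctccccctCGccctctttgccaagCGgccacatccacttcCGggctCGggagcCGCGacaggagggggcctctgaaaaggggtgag
Suox promoter: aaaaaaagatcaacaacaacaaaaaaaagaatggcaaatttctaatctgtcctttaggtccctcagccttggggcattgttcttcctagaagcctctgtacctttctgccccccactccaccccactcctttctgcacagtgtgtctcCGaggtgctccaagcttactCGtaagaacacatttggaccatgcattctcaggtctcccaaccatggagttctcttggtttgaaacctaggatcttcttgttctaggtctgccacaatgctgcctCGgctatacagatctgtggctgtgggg

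At least 41 CpG, as in Csad, were found in 2.83% of rat promoters, and at least 3, as in Suox, in 77.7%. The 6 promoters were also searched on both strands for TGATGNAA, the core of the element bound by ATF4 with CEBP partners, and for TGACNNNGC, the core of the antioxidant response element. Neither was found in any of the 6, while 3.98% and 12.1% of all promoters held the first and the second. That says only that these letters are not in these windows.

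Across all genes, 28 of 12298 passed an adjusted p of 0.05 in edgeR's quasi-likelihood test with Benjamini-Hochberg adjustment, which is 0.228% of those tested (7 higher and 21 lower with BCAA; 11 and 18 without scaling factors). Library totals ran from 12725344 to 15739731 counts. Levels are in CPM, counts per 1000000 reads, scaled between libraries by TMM, edgeR's trimmed mean of M-values. Vehicle replicate 1 stood apart, with a score of 26.8 on a first principal component (29.1% of the variance) where the BCAA libraries scored -15.2 to -1.07 and the other vehicle libraries -3.74 and 0.538. Without it 491 genes were called, or 3.93% of 12489 tested. Stromal markers were present, with 10 of 10 averaging at least 1 CPM. Their summed level was 16500 to 16987 CPM with BCAA and 16311 to 17801 CPM with vehicle. Of 7 smooth muscle and pericyte markers 0 averaged under 1 CPM, so that bar alone does not set the cell type. Of 10 mature adipocyte markers, 7 averaged under 1 CPM, among them Adipoq and Plin1. The list summed to 30.6 to 33.5 CPM with BCAA and 25.0 to 32.0 CPM with vehicle. Most of that sum was Cebpa, which averaged 20.1 CPM with BCAA and 18.7 CPM with vehicle. Of 3 endothelial markers 2 averaged under 1 CPM. Of 4 leukocyte and macrophage markers 0 averaged under 1 CPM, and they summed to 83.0 to 85.6 CPM with BCAA and 78.2 to 80.4 CPM with vehicle. Whether these reads came from other cells was not tested.

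Cdo1, the committed step of cysteine oxidation, was lower in every BCAA library than in any vehicle library. It had 16.3, 16.0 and 17.3 CPM in BCAA replicates 1 to 3, against 27.7, 25.1 and 26.2 CPM in vehicle replicates 1 to 3. These levels rest on 241, 252 and 221 counts with BCAA and 387, 395 and 334 counts with vehicle. The gap between the groups, 7.77 CPM from the highest BCAA library to the lowest vehicle library, was wider than the range within either group. The level averaged 16.5 ± 0.700 CPM in BCAA libraries and 26.3 ± 1.33 CPM in vehicle libraries (SD, n = 3 each). Its log2 fold change was -0.67 (SE 0.10, 95% interval -0.89 to -0.45), so the BCAA level was 0.627 of the vehicle level (95% interval 0.539 to 0.730).

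By the size of p, Cdo1 ranked 11 among the 12298 genes, with an adjusted p of 0.014 in edgeR; this is the value for which it was chosen. Of the 5 members tested it was the 1 that was called, beside 0.228% of all genes in either direction and 0.171% lower; with DESeq2 it was also 1 member, beside 1.75% of 8217 genes. Nothing is read from that count, because the members were chosen with the contrast known. A log2 fold change at or below that of Cdo1 was seen in 99 of 12298 genes (0.805%), and groups without overlap in 18.1% of all genes tested (8.76% lower with BCAA). The call was lost without BCAA replicate 1, 2 or 3 (edgeR adjusted p from 0.062 to 0.12), without vehicle replicate 3 (0.057) and with the replicate number as a block (0.15). The libraries are of bulk cultures, so fewer cells that express Cdo1 and less Cdo1 RNA per cell cannot be told apart. Smooth muscle and pericyte markers also lay lower with BCAA, with 7 of 7 below 0. They summed to 653 to 681 CPM with BCAA and 941 to 1012 CPM with vehicle. Most of that sum was Tagln, which averaged 519 CPM with BCAA and 794 CPM with vehicle. Tagln and Acta2 were called lower, beside 0.171% of all genes, and the other 5 markers were not called. Cspg4 had a log2 fold change of only -0.07 (SE 0.17). The part of these markers in the Cdo1 difference was not tested.

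**Figure D1:**
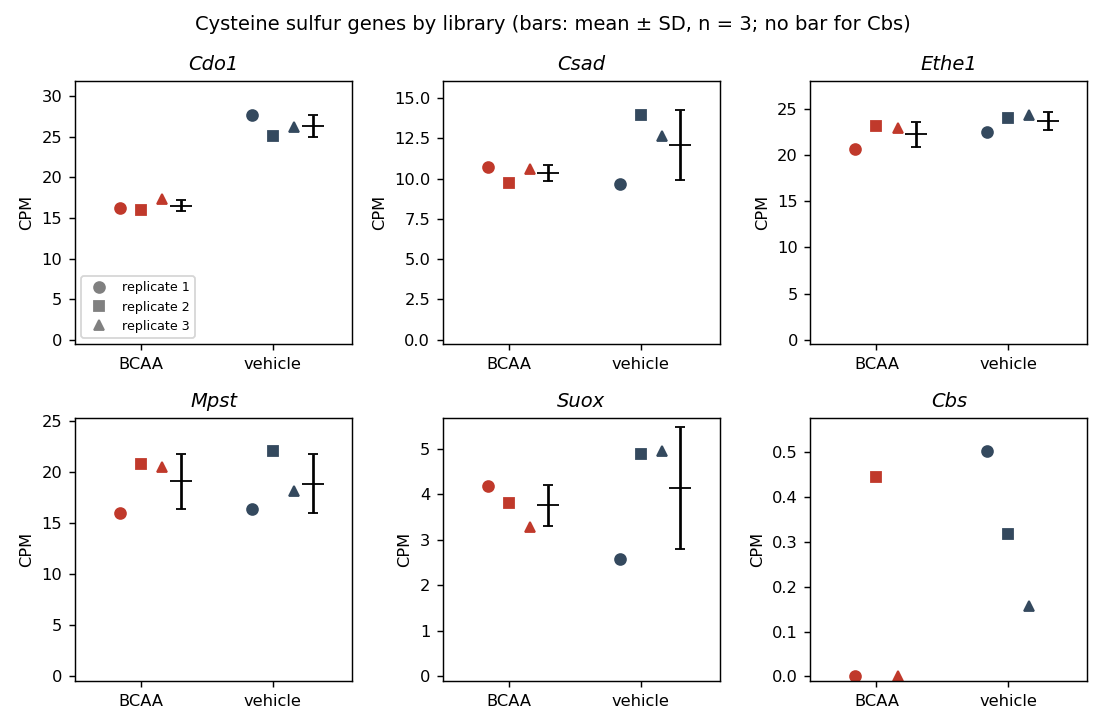
Level in CPM (vertical axis, from 0) of the 6 cysteine sulfur genes found in the counts, in each BCAA library (red, left) and vehicle library (dark, right); bars give the mean ± SD of 3 libraries and are left out for Cbs. The Cdo1 groups are apart, with 16.0 to 17.3 CPM with BCAA and 25.1 to 27.7 CPM with vehicle, while the groups of the other 5 genes overlap.

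Csad, the decarboxylase next after Cdo1 on the way to taurine, had 10.7, 9.76 and 10.6 CPM with BCAA, against 9.67, 14.0 and 12.6 CPM with vehicle. The groups overlapped, because vehicle replicate 1 lay below all 3 BCAA libraries while the other vehicle libraries lay above them. The level averaged 10.4 ± 0.522 CPM in BCAA libraries and 12.1 ± 2.20 CPM in vehicle libraries (SD, n = 3 each), for a log2 fold change of -0.23 (SE 0.15, 95% interval -0.55 to 0.10). The sign is that of Cdo1, and the interval still allows either direction. Without vehicle replicate 1 the log2 fold change was -0.36 (SE 0.14; edgeR adjusted p = 0.16), and without vehicle replicate 2 it was -0.11 (SE 0.16).

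Cbs, the entry enzyme of transsulfuration, was close to the limit of detection. It had 0, 7 and 0 counts in the BCAA libraries and 7, 5 and 2 counts in the vehicle libraries, 7 and 14 counts in all, and did not pass the filter on low counts. A count of 0 allows a level of up to 0.202 CPM in BCAA replicate 1 and 0.235 CPM in BCAA replicate 3 (3 counts per library; counting error only). The highest levels were 0.443 CPM with BCAA and 0.501 CPM with vehicle, so no difference was detectable at this depth.

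Mpst, the sulfurtransferase that acts on mercaptopyruvate, had 16.0, 20.8 and 20.5 CPM with BCAA, against 16.4, 22.0 and 18.2 CPM with vehicle. Each group held 1 library near 16 CPM, replicate 1, and the ranges overlapped almost entirely. Its log2 fold change was 0.01 (SE 0.14), with a 95% interval of -0.28 to 0.31 that leaves out a change the size of that of Cdo1. Ethe1, the persulfide dioxygenase, had 20.7, 23.1 and 22.9 CPM with BCAA, against 22.6, 24.1 and 24.4 CPM with vehicle. The groups overlapped through vehicle replicate 1, and the log2 fold change was -0.09 (SE 0.10, 95% interval -0.30 to 0.13).

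Suox, sulfite oxidase, had 4.18, 3.80 and 3.29 CPM with BCAA, against 2.58, 4.89 and 4.94 CPM with vehicle. Here the vehicle libraries spanned both the lowest and the highest level. With 36 to 77 counts per library, its log2 fold change of -0.13 was the least precise of the 5 (SE 0.25), and its 95% interval of -0.67 to 0.40 includes a change almost as large as that of Cdo1. In vehicle replicate 1, Csad, Mpst, Ethe1 and Suox were each at their lowest vehicle level, while Cdo1 was at its highest.

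Ratios of counts within a library do not depend on how libraries are scaled. Cdo1 had 0.788, 0.690 and 0.754 counts per Ethe1 count in the BCAA libraries, against 1.23, 1.04 and 1.07 in the vehicle libraries. The groups were apart, as the BCAA libraries had fewer Cdo1 than Ethe1 reads and the vehicle libraries more. Against Csad the ratio was 1.52, 1.64 and 1.64 with BCAA and 2.87, 1.80 and 2.07 with vehicle, and against Mpst it was 1.02, 0.768 and 0.844 with BCAA and 1.69, 1.14 and 1.44 with vehicle. All 3 ratios were lower in every BCAA library than in any vehicle library. Cdo1, which was chosen for being lower with BCAA, is in each of them, so the ratios restate its difference and are not independent evidence.

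**Figure D2:**
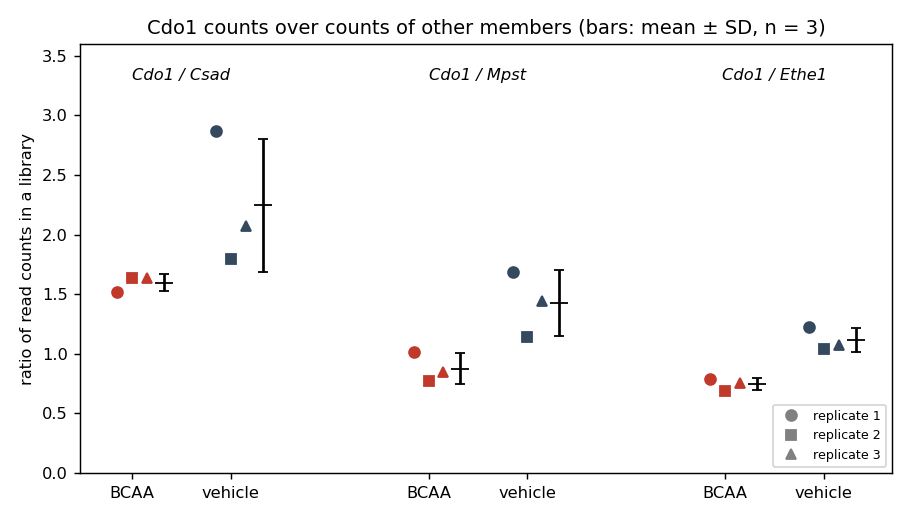
Ratio of Cdo1 read counts to Csad, Mpst and Ethe1 read counts in each library (vertical axis, from 0), BCAA in red on the left and vehicle dark on the right of each pair; bars give the mean ± SD of 3 libraries. Against Ethe1 the BCAA libraries averaged 0.744 and the vehicle libraries 1.11.

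The pathways around these enzymes were followed in 107 further genes, of which 106 were in the counts and 89 were tested. No gene of the 89 passed an adjusted p of 0.05 with edgeR. With DESeq2 none passed either, but DESeq2 gave an adjusted p to only 8217 genes. How many of the 89 were among those genes was not counted. At an unadjusted edgeR p under 0.05 there were 12 of 89 (13.5%), 6 higher and 6 lower with BCAA, beside 11.8% of all genes tested. Groups did not overlap in 24 of 89 (27.0%), 12 in each direction, beside 18.1% of all genes. The median log2 fold change was -0.01, beside 0.00 for all genes tested. No gene of the 89 had a fall as large as that of Cdo1, beside 0.805% of all genes tested. So large a fall is rare and Cdo1 was chosen for it, so nothing is read from its absence among the 89. Without vehicle replicate 1, 90 of these genes were tested and 3 were called, namely Slc26a2 and Slc7a11 higher and Ahcy lower. In that setting 491 of all 12489 genes tested were called (3.93%), so nothing is read from the 3.

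Around taurine, Slc6a6, the taurine transporter of the cell membrane, had 43.3, 36.6 and 36.9 CPM with BCAA, against 23.9, 30.7 and 35.4 CPM with vehicle. Every BCAA library lay above every vehicle library, by a small margin at vehicle replicate 3. The log2 fold change was 0.38 (SE 0.13) and the adjusted p was 0.27 in edgeR, so it did not pass. Fmo1, a monooxygenase that can oxidise hypotaurine to taurine, had 0 to 3 counts in the BCAA libraries and 1 to 15 in the vehicle libraries and was not tested. Slc36a1, a proton-coupled amino acid transporter, had a log2 fold change of 0.10 (SE 0.11). Of 3 tested genes of this list, 2 lay above 0 and 1 below.

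In the supply of cysteine, Slc7a11, the cystine importer, had 166, 153 and 151 CPM with BCAA, against 135, 128 and 140 CPM with vehicle. The groups were apart, with a log2 fold change of 0.22 (SE 0.07) that did not pass (edgeR adjusted p = 0.20). Ctns, which exports cystine from lysosomes, had 36.6, 36.5 and 41.1 CPM with BCAA, against 32.5, 32.6 and 32.5 CPM with vehicle (log2 fold change 0.22, SE 0.09; adjusted p = 0.34 in edgeR). The other partner of the importer, Slc3a2, had a log2 fold change of 0.08 (SE 0.06). None of the 17 tested genes of cystine and cysteine supply was called, and their median log2 fold change was 0.06.

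Upstream, the methionine cycle makes the homocysteine that feeds transsulfuration. Ahcy, which splits S-adenosylhomocysteine into homocysteine and adenosine, had 68.5, 76.1 and 77.3 CPM with BCAA, against 78.1, 92.4 and 85.2 CPM with vehicle. The groups were apart by less than 1 CPM, and the log2 fold change of -0.21 (SE 0.08) did not pass (edgeR adjusted p = 0.35). Mat2a, which makes S-adenosylmethionine, averaged 240 ± 7.26 CPM in BCAA libraries and 237 ± 4.07 CPM in vehicle libraries (SD, n = 3 each), with a 95% interval of -0.11 to 0.15 on the log2 scale. Of 15 tested genes of methionine metabolism, none was called and the median was 0.03.

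Glutathione synthesis competes for cysteine. Gclc, the catalytic subunit of the first enzyme of its synthesis, averaged 126 ± 2.47 CPM in BCAA libraries and 127 ± 5.20 CPM in vehicle libraries (SD, n = 3 each), and its 95% interval ran from -0.15 to 0.13 on the log2 scale. For Gclm, the modifier subunit, the log2 fold change was -0.09 (SE 0.14). Ggct, which releases amino acids from gamma-glutamyl peptides, had 27.5, 28.1 and 29.0 CPM with BCAA, against 37.7, 32.8 and 34.0 CPM with vehicle, with no overlap (log2 fold change -0.30, SE 0.09; edgeR adjusted p = 0.19). Gss, glutathione synthetase, had 87.6, 103 and 96.8 CPM with BCAA, against 112, 111 and 110 CPM with vehicle (log2 fold change -0.21, SE 0.07; edgeR adjusted p = 0.28). None of 6 was called; 5 of 6 lay below 0, 4 of 6 without scaling factors and 3 of 6 without vehicle replicate 1.

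Downstream, mitochondrial sulfide oxidation starts with the sulfide quinone reductase, found in the counts as Sqrdl (Sqor). Sqrdl had 92.1, 90.2 and 90.3 CPM with BCAA, against 113, 105 and 98.3 CPM with vehicle. All BCAA libraries lay below all vehicle libraries, and the log2 fold change of -0.22 (SE 0.07) did not pass (edgeR adjusted p = 0.25). Tst, the sulfurtransferase rhodanese, was at about 1 CPM, with 10 to 22 counts per library. Got1, which can transaminate cysteine to mercaptopyruvate, the substrate of MPST, had a log2 fold change of -0.08 (SE 0.08), and Txn2, the mitochondrial thioredoxin, one of -0.13 (SE 0.07). None of 12 tested genes of this list was called, with a median of -0.06.

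**Figure D3:**
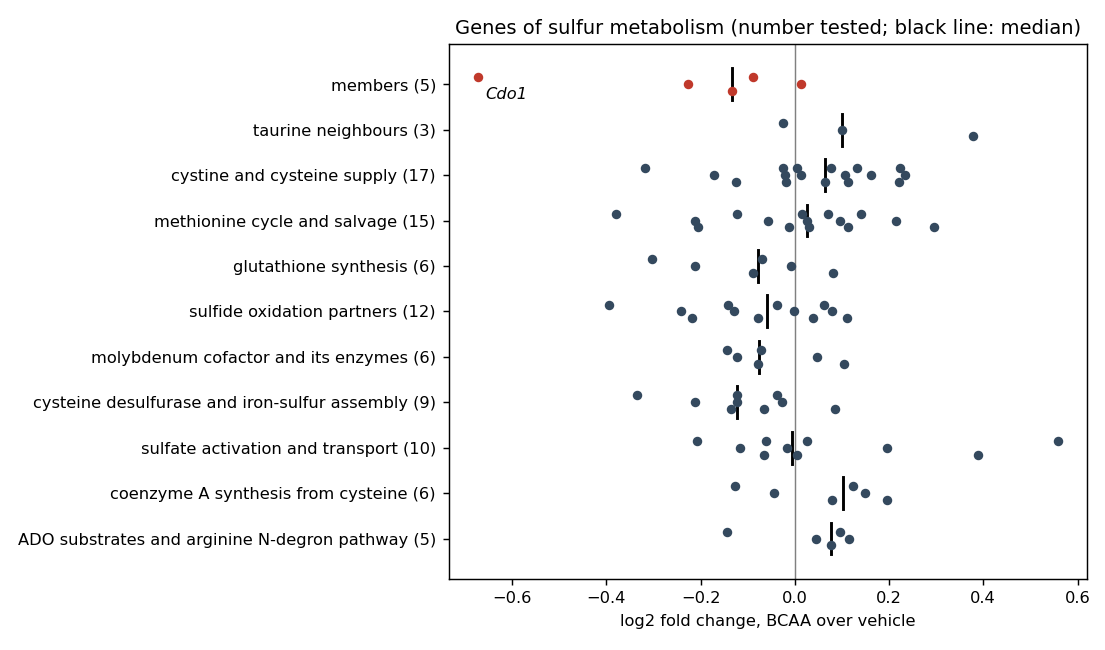
Log2 fold change, BCAA over vehicle (horizontal axis), of the 5 tested cysteine sulfur genes (red) and of the tested genes of 10 further lists of sulfur metabolism (dark), 1 point per gene, with the median of each list as a black line. Cdo1, which was chosen for its fall, lies at -0.67, below all other points. Of all genes tested, 0.805% fell at least as far. The list medians lie between -0.12 and 0.10 outside the members.

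Genes for the cofactors and end products of these steps were not called either. Slc26a2, a sulfate transporter, had 15.1, 10.7 and 11.6 CPM with BCAA, against 9.81, 8.06 and 7.44 CPM with vehicle. The groups were apart, at a log2 fold change of 0.56 (SE 0.16; edgeR adjusted p = 0.18), the highest of the 89. Slc35b2, which carries activated sulfate into the Golgi, had a log2 fold change of -0.21 (SE 0.08; edgeR adjusted p = 0.31). For the molybdenum cofactor that SUOX needs, Mocs1, an enzyme of its first step, had -0.12 (SE 0.07), and Marc2, a molybdenum-dependent reductase, had -0.14 (SE 0.12). Sulfate genes had a median of -0.01 over 10 tested and molybdenum genes one of -0.08 over 6.

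Cysteine also gives its sulfur to iron-sulfur clusters through the desulfurase NFS1, whose gene was not tested because of low counts. Lyrm4, its partner protein, had 13.2, 14.6 and 15.0 CPM with BCAA, against 22.6, 15.3 and 16.0 CPM with vehicle (log2 fold change -0.33, SE 0.15; edgeR adjusted p = 0.41). The high value is that of vehicle replicate 1, and the groups did not overlap. Isca1, an assembly factor, had -0.12 (SE 0.07). Of 9 tested genes of this list, 8 lay below 0 (7 without scaling factors and 6 without vehicle replicate 1), with a median of -0.12 and none called. In coenzyme A synthesis, which takes in cysteine, Pank3 and Pank4, members of the pantothenate kinase family, had 0.12 (SE 0.07) and 0.15 (SE 0.09), and none of 6 was called. In human cells ADO also oxidises the amino-terminal cysteine of proteins such as RGS4 and RGS5, marking them for the arginine N-degron route. Rgs16 had a log2 fold change of -0.14 (SE 0.09) and the ligase gene Ubr2 one of 0.11 (SE 0.09), Rgs4 and Rgs5 averaged under 1 CPM, and none of 5 tested was called.

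Several genes of sulfur amino acid supply, Slc7a11 among them, are known targets of ATF4, the transcription factor of the amino acid response. Of 16 tested genes of that response, Atf3 was called, higher with BCAA, and 15 were not, beside a background of 0.228%. The list median was 0.13, with 13 genes above 0 and 3 below. At an unadjusted edgeR p under 0.05 there were 7 of 16, beside 11.8% of all genes tested. Groups did not overlap in 7 of 16, beside 18.1% of all genes. The list was chosen with earlier results of these data known. The count called, all higher with BCAA, was 3 of 16 without vehicle replicate 1, where 3.93% of all 12489 genes tested were called. It was 2 of 16 without scaling factors, where 29 of all 12298 genes were called. Atf3 had 69.7, 77.1 and 81.6 CPM with BCAA, against 49.0, 47.0 and 42.6 CPM with vehicle (log2 fold change 0.72, SE 0.09). Vldlr, the next by p, had 105, 102 and 106 CPM with BCAA, against 84.2, 84.0 and 78.0 CPM with vehicle (log2 fold change 0.35, SE 0.07; edgeR adjusted p = 0.057). Atf4 itself averaged 715 ± 40.0 CPM in BCAA libraries and 717 ± 73.8 CPM in vehicle libraries (SD, n = 3 each).

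The genes whose level followed Cdo1 most closely were sought among 11181 named genes with a mean of at least 1 CPM, by Pearson's r of log2 CPM over the 6 libraries. The highest r in the ranking was that of Pak1, a kinase of cytoskeletal signalling (0.997), followed by Prelp, a matrix proteoglycan (0.996), Cyr61 (0.995), Actb, beta actin (0.990), and Igfbp3, an IGF binding protein (0.990). Pak1 had 83.6, 84.1 and 89.9 CPM with BCAA, against 125, 115 and 117 CPM with vehicle, and like Cdo1 it had its highest level in vehicle replicate 1. The lowest r were those of Tmem140 (-0.998), Ctnnb1, beta catenin (-0.997), and Enc1 (-0.994). Tmem140 had 15.3, 15.1 and 14.1 CPM with BCAA, against 9.38, 10.1 and 9.95 CPM with vehicle. All these genes share the same 6 libraries and a gap between the groups, which alone gives a high r, so the ranking is a description of 6 points. No gene of the sulfur lists was among them.

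**Figure D4:**
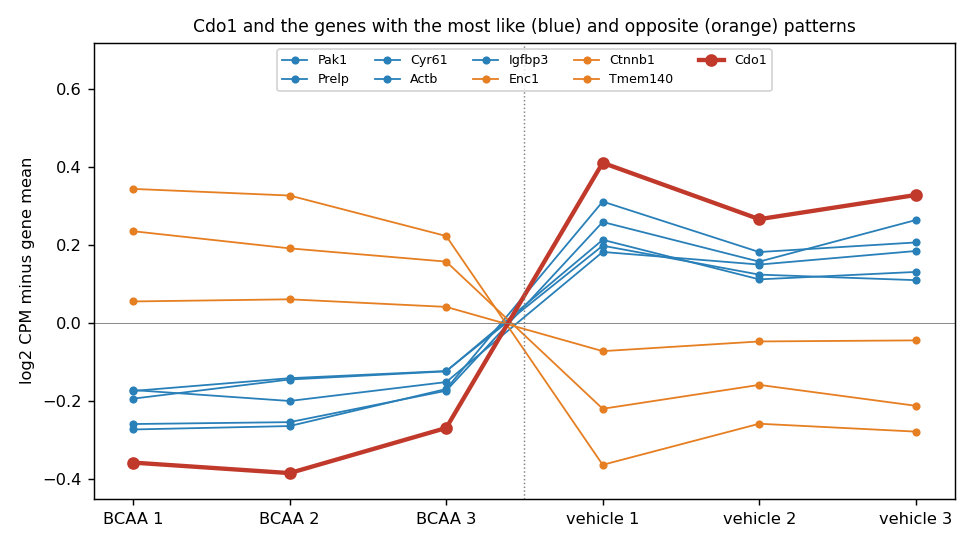
Log2 CPM minus the gene's mean over the 6 libraries (vertical axis) in each BCAA library (left) and vehicle library (right) for Cdo1 (thick red), the 5 genes with the highest r (blue) and the 3 with the lowest (orange); lines only join the values of 1 gene. The blue genes have r of 0.990 to 0.997 and the orange genes of -0.994 to -0.998.

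The size of the Cdo1 difference moved little with the processing, while its call did not hold throughout. Over the 12 alternatives its log2 fold change ran from -0.71 to -0.63. It stayed past the threshold with both other scalings, both other filters and DESeq2, and without vehicle replicate 1 or 2.

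**Figure D5:**
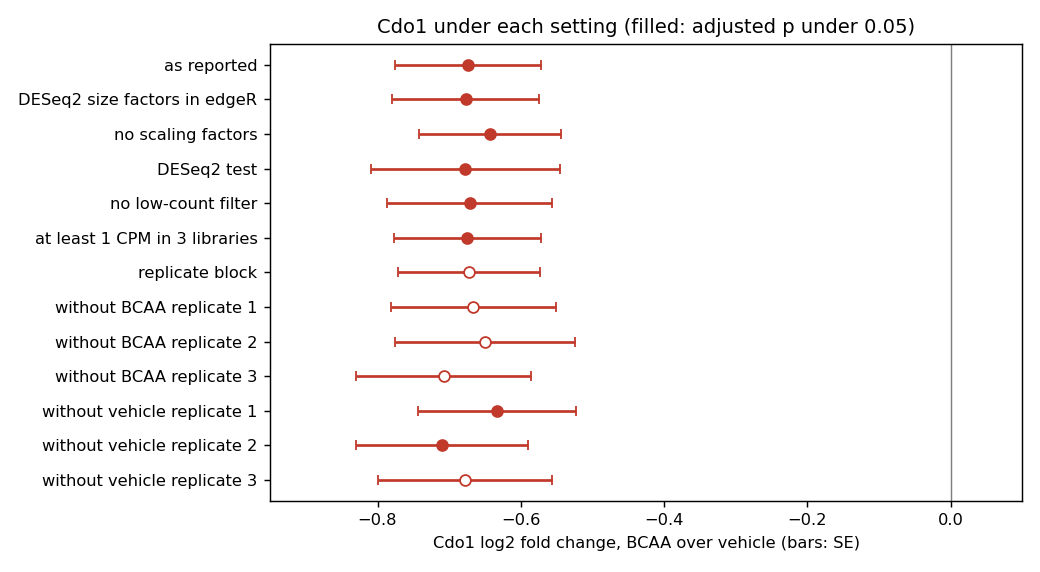
Cdo1 log2 fold change, BCAA over vehicle, with its SE (horizontal axis) as reported and under each of 12 alternatives (rows); filled points have an adjusted p under 0.05. All points lie between -0.71 and -0.63, and 5 of the 12 alternatives are open points.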

How the data were processed

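Per the labels' protocols, TRIzol RNA went into NEBNext Ultra libraries. The deposited values are raw counts of reads for each gene symbol, one column per library (6 libraries). The submitters' processing notes name Trimmomatic, FastQC, STAR and HTSeq with build rn6. Tool versions, gene annotation and strand setting were not given in the sources used here, so reads of overlapping genes may be misassigned. Columns were matched to titles, and all directions rest on those names.

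Genes were tested with edgeR 4.0.16 in R 4.3.3 (quasi-likelihood, robust, TMM, group only, filterByExpr with a minimum count of 10 and total of 15), with Benjamini-Hochberg adjustment over 12298 genes and a threshold of 0.05. The SE is the log2 fold change over the square root of F. DESeq2 1.42.0 and the other alternatives are given in the closing section.

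The members and lists were chosen with earlier results of these data known. Named genes are the members, 10 pathway genes set by name, called genes and the 2 smallest p of each list, and the 5 genes most and 3 least like Cdo1; Slc3a2 and Atf4 were named after their values were seen. The result of 1 gene under this rule is not reported here. Of the 107 wider symbols, 6 were found under another symbol in the RefSeq table of GRCr8. Chi-square per degree of freedom between libraries was 2.65 to 18.1 over 15 pairs, so none was a copy.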

Additional observations from a re-analysis of the deposited data

How the results depend on the processing

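Of all genes, 28 were called; with DESeq2 the number was 144, with no filter on low counts 124 and with the replicate number as a block 6. It ran from 7 to 491 with each library left out in turn, the highest without vehicle replicate 1. The number of members called was 0 with the replicate block and 0 to 1 with a library left out; the wider sulfur genes gave 0 to 3. Cdo1 was at -0.67 with the replicate block (edgeR adjusted p = 0.15) and at -0.71 to -0.63 with a library left out (edgeR adjusted p from 0.0019 to 0.12). With a library left out, the log2 fold change of Mpst ran from -0.080 to 0.142, and that of Suox from -0.379 to 0.0127, both changing sign. The cause was not tested, except that leaving out a library leaves fewer samples. Same-numbered libraries deviated from their group means with correlations of -0.15 to 0.11, so the numbers were not taken as pairs. Cbs, Fmo1 and Nfs1 had too few counts to be tested at this depth.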
